A study of Mus musculus with 6 samples.

Results

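The enteroendocrine transcripts of the mouse colon were described over 6 RNA sequencing libraries through 10 genes taken from a list of products that define these cells. The 10 genes were the granins Chga and Chgb, the hormones Gcg, Pyy, Insl5, Sst, Cck and Nts, the serotonin-synthesising enzyme Tph1 and the transcription factor Neurod1. All 10 were among the 24517 genes listed and among the 16347 genes that passed a filter on low counts. The libraries came from colon of Nsd2fl/fl mice (3 libraries), controls with an intact floxed gene, and Nsd2ΔIE mice (3 libraries), in which a Villin-Cre transgene removed Nsd2, a histone methyltransferase gene, from the intestinal epithelium. All mice were on a C57BL/6J background per the study's methods. Both groups were fed HFCD, a diet rich in fat and cholesterol. The labels give its duration as 16 weeks and the methods as 18 weeks, and the methods describe male littermates aged 7 to 8 weeks at the start. No group without HFCD was analysed here. The deletion acts in every cell of the Villin lineage, in which the enteroendocrine cells are a small minority, and the other cells of the colon wall keep the gene.

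Enteroendocrine cells are scattered hormone-producing cells of the gut epithelium. They arise in the crypts under the control of transcription factors such as Neurog3 and Neurod1, store their products in dense-core granules built with chromogranins, and release them when receptors on their surface meet nutrients or microbial metabolites. In the colon the main types are the L cells, which make glucagon-like peptides from the Gcg precursor together with peptide YY and, towards the rectum, insulin-like peptide 5. Others are the enterochromaffin cells, which make serotonin, and the D cells, which make somatostatin. Neurotensin and cholecystokinin are better known from the small intestine. The mix of products is known to change along the length of the gut, and Hoxb13, a Hox gene used most caudally, is a marker of the distal colon. The labels give the tissue as colon and name no segment.

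Totals ran from 38041832 to 38604680 counts per library, and 3 counts, the limit that a count of 0 allows, corresponded to less than 0.1 CPM (read counts after each library was scaled to the same total). As a check of the labels, Nsd2 had 1840, 2091 and 2455 counts in Nsd2fl/fl and 972, 914 and 1139 counts in Nsd2ΔIE (log2 fold change -1.23, SE 0.159, adjusted p = 0.302 by edgeR's quasi-likelihood test with Benjamini-Hochberg adjustment). Xist had 4, 0 and 3 counts in Nsd2fl/fl and 24234, 21217 and 23403 counts in Nsd2ΔIE. The 4 Y-linked genes examined together had 5058 to 6110 counts per library in Nsd2fl/fl and 0, 0 and 1 in Nsd2ΔIE. The sex-linked genes therefore went against the statement that all mice were male, and in all that follows genotype and sex pattern cannot be told apart. Epithelial markers were present at summed levels of 13343 to 23354 CPM, and of 8 exocrine and islet genes of the pancreas 4 were listed, at 5 counts or fewer in any library. Hoxb13 was at 364.9, 0.706 and 340.5 CPM in Nsd2fl/fl replicates 1 to 3 and at 310.0, 4.97 and 26.2 CPM in Nsd2ΔIE replicates 1 to 3. The widest gap in Hoxb13, 3.57 on the log2 scale, parted 3 high libraries (Nsd2fl/fl 1 and 3, Nsd2ΔIE 1) from 3 low libraries (Nsd2fl/fl 2, Nsd2ΔIE 2 and 3). This split was measured in the same libraries and is no label, so the view by Hoxb13 is a description without a test. The low libraries also lay apart from one another in Hoxb13, by gaps of 2.81 and 2.40 on the log2 scale.

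To show the sequence context of both granins, which were alike in pattern, of Sst, and of Insl5 and Nts, which ran in opposite directions across Hoxb13, the 250 bases before the RefSeq transcription start site (build GRCm38.p6) are printed, each 5′ to 3′ on the strand of its gene. Chga is at chr12:102554691-102554940 on the plus strand and Chgb at chr2:132781392-132781641 on the plus strand. Sst is at chr16:23890845-23891094, Insl5 at chr4:103026729-103026978 and Nts at chr10:102490419-102490668, all on the minus strand. Capitals mark matches to TGACGTNA, a cyclic AMP response element, or to CAGATG, an E-box of the kind that Neurod1 is known to bind, on either strand.
Chga: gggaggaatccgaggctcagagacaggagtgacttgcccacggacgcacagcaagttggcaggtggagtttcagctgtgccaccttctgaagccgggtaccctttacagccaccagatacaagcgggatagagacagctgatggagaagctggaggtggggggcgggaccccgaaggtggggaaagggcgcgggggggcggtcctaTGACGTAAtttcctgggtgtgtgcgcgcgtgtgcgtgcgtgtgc
Chgb: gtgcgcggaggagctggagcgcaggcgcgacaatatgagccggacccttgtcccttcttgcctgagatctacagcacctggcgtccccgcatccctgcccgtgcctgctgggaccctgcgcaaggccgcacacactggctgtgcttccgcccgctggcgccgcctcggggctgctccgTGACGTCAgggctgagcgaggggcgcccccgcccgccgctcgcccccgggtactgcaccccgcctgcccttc
Sst: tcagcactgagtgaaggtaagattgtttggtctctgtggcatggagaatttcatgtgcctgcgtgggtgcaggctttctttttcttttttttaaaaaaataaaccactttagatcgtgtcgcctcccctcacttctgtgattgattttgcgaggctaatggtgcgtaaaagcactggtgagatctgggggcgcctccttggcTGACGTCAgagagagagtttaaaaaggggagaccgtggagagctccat
Insl5: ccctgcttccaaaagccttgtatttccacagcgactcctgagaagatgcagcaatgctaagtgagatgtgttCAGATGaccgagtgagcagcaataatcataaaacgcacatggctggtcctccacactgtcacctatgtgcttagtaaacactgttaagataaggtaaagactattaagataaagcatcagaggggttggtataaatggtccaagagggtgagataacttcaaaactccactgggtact
Nts: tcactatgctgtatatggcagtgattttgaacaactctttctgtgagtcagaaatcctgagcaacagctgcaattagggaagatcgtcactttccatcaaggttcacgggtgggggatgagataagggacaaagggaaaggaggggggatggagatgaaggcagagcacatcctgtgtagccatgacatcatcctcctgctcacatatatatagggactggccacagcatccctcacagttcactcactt
A match to TGACGTNA was present in 3 of the 10 windows (250 bases before to 50 after the start site), against 2.93% of 32851 windows of all genes. It began 44 bases before the start site in Chga, read as TGACGTAA, and 72 bases before it in Chgb and 48 bases before it in Sst, read as TGACGTCA in both. CAGATG was in 3 of the 10 windows, against 17.2% of all windows. Gcg held it at 139 and 83 bases before the start site, Insl5 at 178 and Cck at 30. Windows of Nts, Pyy, Tph1 and Neurod1 held neither. CAATAAA and TCGTAAA, letters bound by caudal Hox proteins, were in none of the 10 windows, against 4.6% and 0.597% of all windows. These are matches of letters in these windows, and binding was not measured.

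None of the 10 genes differed between Nsd2ΔIE and Nsd2fl/fl at an adjusted p under 0.05, as 0.0306% of all genes did (edgeR). Sst was nearest. Its Nsd2ΔIE values lay above those of Nsd2fl/fl, as for 11.4% of all genes, but Nsd2ΔIE 1 only just, at 22.7 CPM against 22.5 CPM in Nsd2fl/fl 1. The libraries differed far more among themselves in which hormones they held: with high Hoxb13, in 2 Nsd2fl/fl libraries and 1 Nsd2ΔIE library, Insl5 and Pyy were higher, and the granins, Gcg, Cck, Nts and Tph1 lower, than in any library with low Hoxb13. Such a separation was found for 22.4% of all genes, and that of Nts was fixed by the filter on low counts.

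The genes of highest level were hormones and granins. On the FPKM scale (reads divided by gene length and library total, so that levels of different genes can be compared), Pyy averaged 96.9 ± 31.9 FPKM (SD, n = 6 libraries), Chgb 84.5 ± 43.8, Insl5 76.5 ± 62.6, Chga 64.0 ± 32.2 and Gcg 53.4 ± 7.84. Sst followed at 34.1 ± 18.7 FPKM, Nts at 18.1 ± 23.9, Tph1 at 6.69 ± 4.15, Cck at 1.42 ± 0.711 and Neurod1 at 0.951 ± 0.274. Neighbours in this order overlapped in their ranges over the libraries, with 1 exception, since the lowest Tph1 value of 2.51 FPKM lay above the highest Cck value of 2.34 FPKM. Gcg was the steadiest, with 41.5 to 64.4 FPKM and a 1.55-fold range, and Insl5 spanned an 18.1-fold range from 7.78 to 141 FPKM. The order within a library therefore depended on the library. Insl5 was the most abundant of the 10 in Nsd2fl/fl 1, Nsd2fl/fl 3 and Nsd2ΔIE 1, and Chgb was in Nsd2fl/fl 2, Nsd2ΔIE 2 and Nsd2ΔIE 3.

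**Figure D1:**
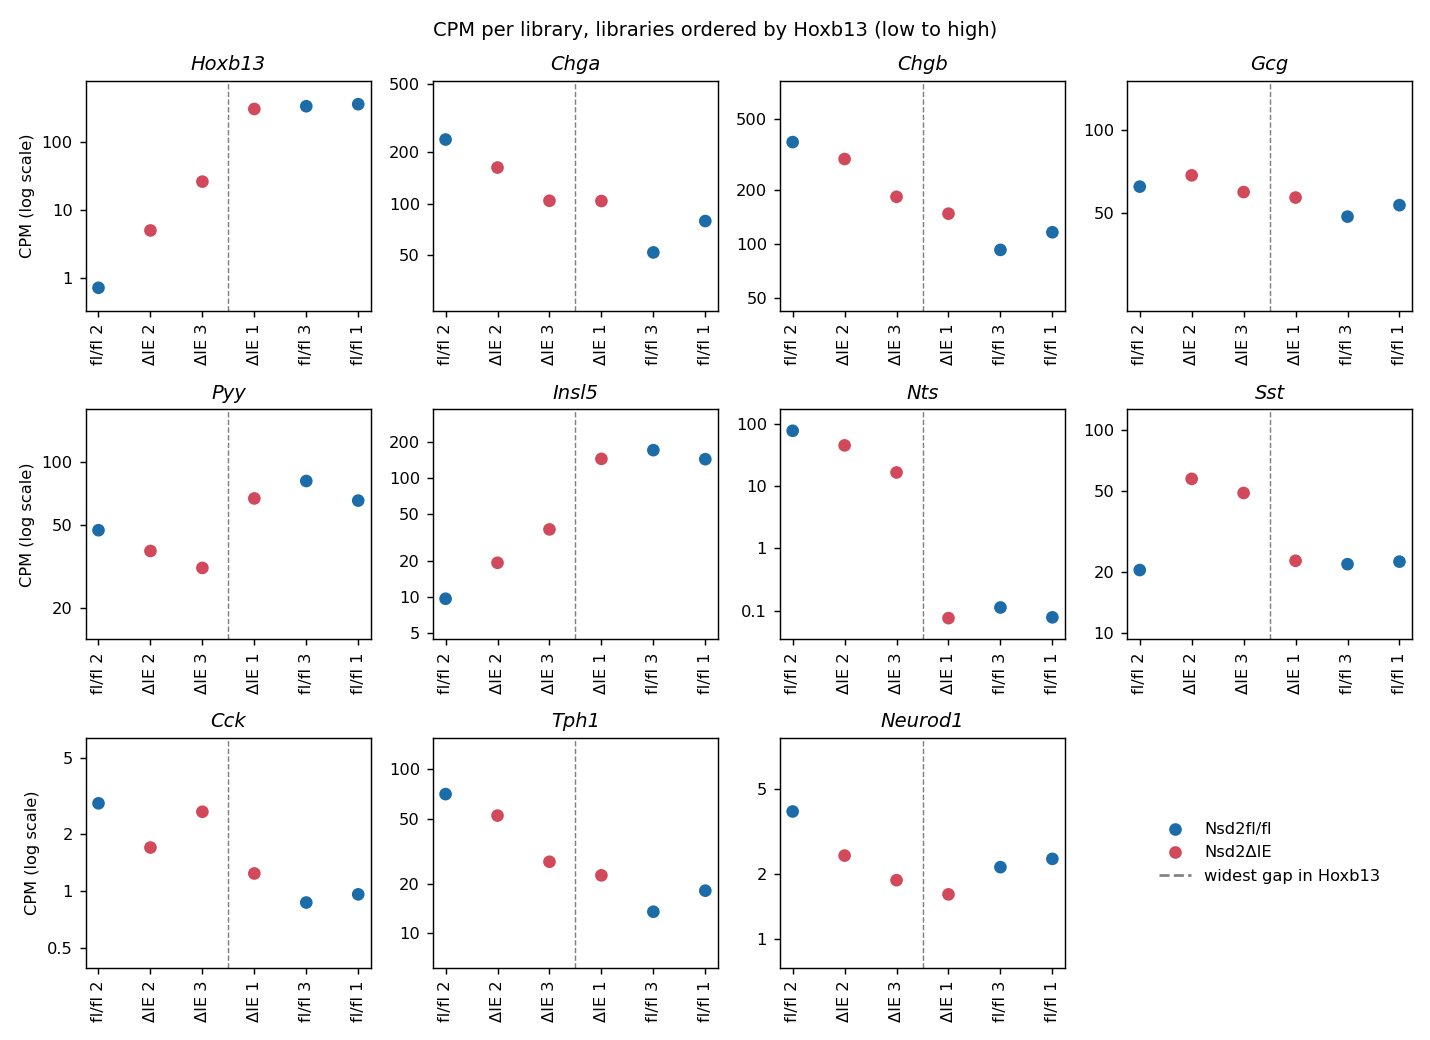
TMM-scaled CPM of Hoxb13 and the 10 enteroendocrine genes (log axes, 1 point per library; blue Nsd2fl/fl, red Nsd2ΔIE), with libraries ordered from low to high Hoxb13 and a dashed line at the widest gap of Hoxb13. Insl5 and Pyy lie higher to the right of the line and Nts falls to 3 or 4 counts there, while Sst is the 1 gene with all red points above all blue points.

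The granins, chromogranin A (Chga, chr12:102554969-102565028 in GENCODE on GRCm38) and chromogranin B (Chgb, chr2:132781278-132795079), are acidic proteins that pack the granule core. Chga was at 79.1, 237 and 51.8 CPM in Nsd2fl/fl and at 104, 163 and 104 CPM in Nsd2ΔIE. Chgb was at 116, 372 and 92.5 CPM in Nsd2fl/fl and at 148, 299 and 184 CPM in Nsd2ΔIE. For both granins the highest and the lowest library were Nsd2fl/fl libraries, so the Nsd2ΔIE values lay inside the spread of the controls. The log2 fold change of Nsd2ΔIE against Nsd2fl/fl was 0.01 (SE 0.547, adjusted p = 0.997) for Chga and 0.12 (SE 0.555, adjusted p = 0.949) for Chgb by edgeR's quasi-likelihood test with Benjamini-Hochberg adjustment over all genes. Both granins were lower in each high-Hoxb13 library than in any low-Hoxb13 library, narrowly so for Chga, where Nsd2ΔIE 1 and Nsd2ΔIE 3 were at 103.6 and 104.0 CPM. The FPKM ratio of Chgb to Chga stayed between 1.15 and 1.48 in the 6 libraries. In the bulk tissue, fewer cells of a type and less RNA per cell cannot be told apart.

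Tph1 (chr7:46644641-46672537), the enzyme that limits serotonin synthesis outside the nervous system and the marker of enterochromaffin cells, had the same shape. It was at 18.2, 70.7 and 13.6 CPM in Nsd2fl/fl and at 22.6, 52.3 and 27.4 CPM in Nsd2ΔIE. Its log2 fold change was -0.003 (SE 0.654, adjusted p = 0.999, edgeR), and its 95% interval of -1.56 to 1.55 admits a difference of either sign. Across Hoxb13 it did not overlap, with 13.6 to 22.6 CPM in the high libraries and 27.4 to 70.7 CPM in the low ones. The FPKM ratio of Tph1 to Chga moved between 0.0824 and 0.121, a narrow range beside the 5.15-fold range of Tph1 itself.

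The L cell products did not move as 1 group. Gcg (chr2:62474530-62483650), the proglucagon gene, was at 53.3, 62.3 and 48.4 CPM in Nsd2fl/fl and at 56.8, 68.4 and 59.5 CPM in Nsd2ΔIE. The groups overlapped, through Nsd2fl/fl 2, and the log2 fold change was 0.17 (SE 0.133, adjusted p = 0.675, edgeR). Gcg was slightly lower with high Hoxb13, at 48.4 to 56.8 CPM against 59.5 to 68.4 CPM. In FPKM, which carries no TMM scaling, the high and low libraries of Gcg overlapped, while the 3 Nsd2ΔIE values of 53.6 to 64.4 FPKM lay just above the Nsd2fl/fl values of 41.5 to 52.7 FPKM.

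Pyy (chr11:102106676-102107832), which encodes peptide YY, an inhibitor of appetite and gut motility, went the other way across Hoxb13. It was at 65.3, 47.1 and 81.0 CPM in Nsd2fl/fl and at 66.8, 37.4 and 31.1 CPM in Nsd2ΔIE. The 3 high-Hoxb13 libraries held 65.3 to 81.0 CPM and the 3 low ones 31.1 to 47.1 CPM. The log2 fold change between genotypes was -0.51 (SE 0.325, adjusted p = 0.610, edgeR), and the difference of Nsd2ΔIE from Nsd2fl/fl in mean log2 CPM was -0.12 among the high libraries and -0.46 among the low ones. The FPKM ratio of Gcg to Pyy was 0.308 to 0.437 in the high libraries and 0.680 to 0.985 in the low ones.

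Insl5 (chr4:103017872-103026842), the hormone of distal L cells that acts on the receptor Rxfp4, showed the same direction at a larger scale. It was at 144, 9.64 and 172 CPM in Nsd2fl/fl and at 145, 19.4 and 37.0 CPM in Nsd2ΔIE. The high-Hoxb13 libraries lay within 144 to 172 CPM whatever their genotype, and the low ones within 9.64 to 37.0 CPM. The difference between high and low libraries in mean log2 CPM was 3.01 for Insl5, 0.90 for Pyy and -0.26 for Gcg. The genotype difference of Insl5 on the log2 scale was -0.69 (SE 1.07, adjusted p = 0.832, edgeR). It turned to 0.68 (SE 0.438, adjusted p = 0.537) when the Hoxb13 split entered the fit as a covariate.

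Nts (chr10:102481756-102490486), the neurotensin gene, was nearly absent from 3 libraries. It had 3, 2761 and 4 counts in Nsd2fl/fl and 3, 1801 and 691 counts in Nsd2ΔIE, that is 78.0, 45.4 and 16.7 CPM in the 3 libraries with low Hoxb13 and 3 or 4 counts in the 3 with high Hoxb13. The gene passed the filter on low counts through the low-Hoxb13 libraries alone, so its place among the genes tested is no separate finding. Fitted log2 values for Nts depend on the prior count and are no bound. The genotype log2 fold change was -0.33 with an SE of 2.23 (adjusted p = 0.966, edgeR). With the Hoxb13 split as a covariate it was -1.25 (SE 0.468, unadjusted p = 0.0318, adjusted p = 0.344), a value that rests on the 3 low libraries, where Nsd2fl/fl had 1 library. Within those 3 libraries the Nts level fell in the order in which Hoxb13 and Insl5 rose. In FPKM, Insl5 was at 0.136, 0.470 and 2.45 times the level of Nts in Nsd2fl/fl 2, Nsd2ΔIE 2 and Nsd2ΔIE 3.

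Cck (chr9:121489824-121495694), cholecystokinin, was low throughout, with 37, 102 and 31 counts in Nsd2fl/fl and 49, 67 and 108 counts in Nsd2ΔIE. It was at 0.870 to 1.24 CPM in the high-Hoxb13 libraries and at 1.69 to 2.88 CPM in the low ones. Its genotype log2 fold change was 0.23 (SE 0.553, adjusted p = 0.896, edgeR).

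Sst (chr16:23889573-23890958), which encodes somatostatin, the inhibitory peptide of D cells that is also made by some enteric neurons, was the member that differed most between genotypes relative to its error. It was at 22.5, 20.5 and 21.9 CPM in Nsd2fl/fl and at 22.7, 57.7 and 49.1 CPM in Nsd2ΔIE. The groups did not overlap, but Nsd2ΔIE 1 lay only just above Nsd2fl/fl 1, and the difference came from the other 2 Nsd2ΔIE libraries. The log2 fold change was 1.00 (SE 0.320, 95% interval 0.24 to 1.76). Sst did not pass over all genes (unadjusted p = 0.0177, adjusted p = 0.350, edgeR). Leaving out Nsd2ΔIE 2 gave a log2 fold change of 0.73 (unadjusted p = 0.0620) and leaving out Nsd2ΔIE 3 gave 0.90 (unadjusted p = 0.0547). Among the high-Hoxb13 libraries Nsd2ΔIE exceeded Nsd2fl/fl by 0.03 in mean log2 CPM, and among the low ones by 1.38. With the Hoxb13 split as a covariate the log2 fold change was 0.71 (SE 0.304, unadjusted p = 0.0520).

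Markers of cells outside the epithelium were fitted higher in the same group as Sst. Of 12 enteric neuron markers, 8 had an unadjusted p under 0.05 and all 8 were higher in Nsd2ΔIE, beside 8.15% of all genes. The list's median log2 fold change was 0.95. Their summed level was 128 to 181 CPM in Nsd2fl/fl and 230 to 285 CPM in Nsd2ΔIE, highest in Nsd2ΔIE 2 and 3, and none of the 12 was at 0 throughout. Of 8 smooth muscle markers, 7 had an unadjusted p under 0.05 and were higher in Nsd2ΔIE, with summed levels of 1421 to 4086 CPM against 5079 to 10896 CPM. Of 6 adipocyte markers 5 were tested and fitted higher, 2 with an unadjusted p under 0.05, with a median of 2.43 and summed levels of 14.9 to 30.0 CPM against 32.3 to 72.0 CPM. The 10 epithelial markers were all fitted lower, none with an unadjusted p under 0.05, with a median of -0.31 and summed levels of 13946 to 23354 CPM against 13343 to 15294 CPM. The part of these cells in the Sst values was not tested. No marker or list gene other than the sex-linked ones had an adjusted p under 0.05 by edgeR. By DESeq2 2.91% of all genes did, and whether marker or list genes were among them was not examined.

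Neurod1 (chr2:79452521-79456751), a basic helix-loop-helix factor of enteroendocrine differentiation, had 91, 139 and 77 counts in Nsd2fl/fl and 64, 97 and 78 counts in Nsd2ΔIE. In CPM this was 2.36, 3.93 and 2.16 against 1.61, 2.45 and 1.88, with overlap between genotypes and across Hoxb13. The log2 fold change was -0.51 (SE 0.329, adjusted p = 0.620, edgeR), and -0.68 (SE 0.264, unadjusted p = 0.0368, adjusted p = 0.359) with the Hoxb13 split as a covariate. Its exons overlap those of Cerkl on the same strand and of Gm26755 on the other, so some of its few reads may be shared. The other 9 genes overlap no annotated exon of another gene.

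**Figure D2:**
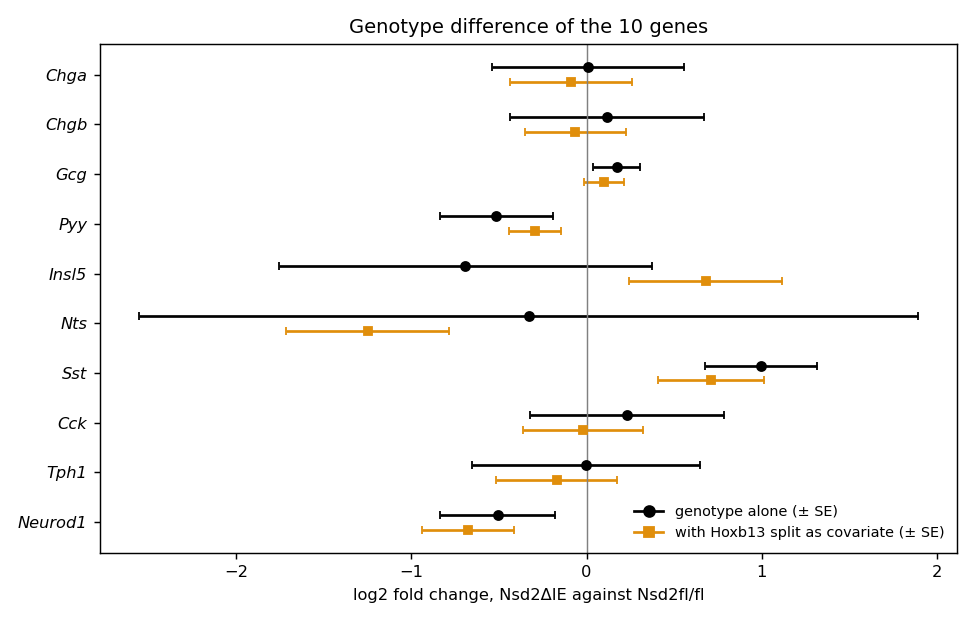
Log2 fold change of Nsd2ΔIE against Nsd2fl/fl for the 10 genes from edgeR (points with ± SE; black, genotype alone; orange, with the high or low Hoxb13 split as a covariate; 3 libraries per group). Sst lies farthest above 0 relative to its SE at 1.00, and the SE of Nts narrows from 2.23 to 0.468 with the covariate.

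Counted over the 10 genes, 5 were fitted higher and 5 lower in Nsd2ΔIE. Their median log2 fold change was 0.003, against -0.04 over all genes tested. None of the 10 had an adjusted p under 0.05, by edgeR or by the Wald test of DESeq2, where 0.0306% of all genes did by edgeR (5 genes) and 2.91% by DESeq2. The 5 genes of edgeR were Xist and the 4 Y-linked genes examined. At an unadjusted p under 0.05, 1 of the 10 was higher, Sst, and none was lower, beside 11.1% of all genes (8.15% higher and 2.96% lower). Groups that did not overlap between genotypes were found for 1 of the 10, higher in Nsd2ΔIE, beside 18.7% of all genes (11.4% higher and 7.28% lower). With the Hoxb13 split as a covariate, 2 of the 10 had an unadjusted p under 0.05 (Nts and Neurod1, both fitted lower), beside 13.0% of all genes. The 95% intervals of the genotype differences were wide for Chga, Chgb, Insl5, Nts, Cck and Tph1, and differences in log2 of more than 1 in either direction lay inside each of them.

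1 library weighed on the granins, Nts and Tph1. Without Nsd2fl/fl 2, the control library of lowest Hoxb13, 5 of the 10 genes had an unadjusted p under 0.05, beside 13.2% of all genes. All 5 were higher in Nsd2ΔIE: Chga at 0.91, Chgb at 1.01, Sst at 0.96, Tph1 at 1.10 and Nts. The remaining controls of Nts had 3 and 4 counts. In this fit Nts passed the filter on low counts through Nsd2ΔIE libraries alone, so its direction was fixed and its call is no separate finding. The remaining Nsd2fl/fl libraries were then both high in Hoxb13 and 2 of the 3 Nsd2ΔIE libraries low, and none of these 5 had an adjusted p below 0.325. Without Nsd2ΔIE 1, Pyy at -0.91 and Sst at 1.31 had an unadjusted p under 0.05 (adjusted p = 0.311 and 0.114, edgeR), beside 11.6% of all genes.

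By Hoxb13, 8 of the 10 genes took values that did not overlap between the 3 high and the 3 low libraries, beside 22.4% of all genes tested. The separation of Nts was fixed by the way it passed the filter, and of the other 9 genes 7 did not overlap. Pyy and Insl5, both peptide hormones of L cells, were higher in the high-Hoxb13 libraries (12.8% of all genes). Chga, Chgb, Gcg, Cck, Nts and Tph1 were lower there (9.55% of all genes), and Sst and Neurod1 overlapped. In CPM scaled by library totals alone, or in FPKM, 7 of the 10 did not overlap, since Gcg overlapped. High and low libraries differed in mean log2 CPM by -1.08 for Chga, -1.23 for Chgb, -1.39 for Tph1 and -1.17 for Cck. Beside Hoxb13, which defined the split, 10 Hox genes were tested: 3 were higher with high Hoxb13 (Hoxa13, Hoxd13 and Hoxd12) and 5 lower (Hoxa11, Hoxb6, Hoxb7, Hoxb8 and Hoxb9). Whether the libraries were taken from different stretches of the colon was not tested.

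The make-up of the summed level of the 10 genes differed between libraries. The sum was 415, 491 and 404 FPKM in Nsd2fl/fl and 457, 478 and 374 FPKM in Nsd2ΔIE. Summed without regard to gene length, it was 502, 904 and 484 CPM in Nsd2fl/fl and 568, 746 and 513 CPM in Nsd2ΔIE. The shares that follow are of the FPKM sum. Insl5 made up 30.7%, 1.59% and 34.8% of that sum in Nsd2fl/fl and 28.6%, 3.63% and 9.34% in Nsd2ΔIE. Nts made up 11.6% in Nsd2fl/fl 2, 7.73% in Nsd2ΔIE 2 and 3.81% in Nsd2ΔIE 3, and 0.0135% to 0.0206% in the other 3 libraries. The granins together with Tph1 followed Nts rather than Insl5. Chgb took 9.01% to 14.0% in the high-Hoxb13 libraries and 22.3% to 29.5% in the low ones, and Chga 6.28% to 12.2% against 15.7% to 23.4%. Pyy took 26.8% to 33.4% against 14.3% to 16.0%, and Gcg between 10.3% and 15.8% in all 6. Sst was at 12.8% and 14.7% in Nsd2ΔIE 2 and 3, and at 3.98% to 5.67% in the other 4 libraries, the control with low Hoxb13 among them. Shares sum to a whole, so a higher share of 1 gene lowers those of the rest.

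**Figure D3:**
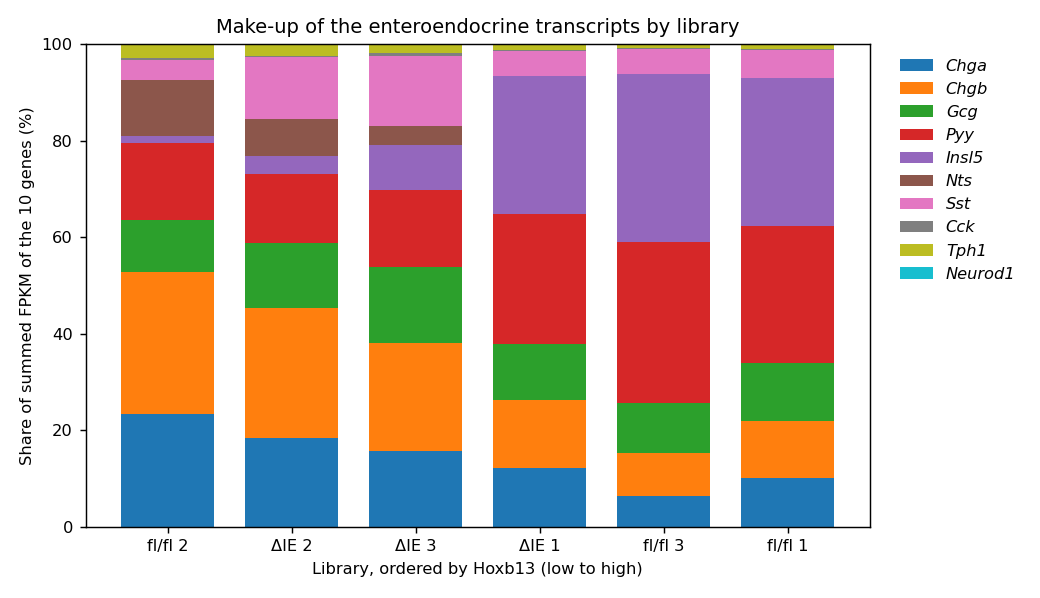
Stacked shares (%) of the summed FPKM of the 10 genes in each library, ordered from low to high Hoxb13. Insl5 fills 28.6% to 34.8% of the bar in the 3 libraries on the right and Nts 3.81% to 11.6% in the 3 on the left, with Neurod1 and Cck too thin to be seen in most bars.

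As a description of likeness, the genes with the most similar log2 CPM over the 6 libraries were sought among 10698 genes of moderate or high level. The libraries differ widely in Hoxb13 and share depth and tissue, so a high value arises for many genes and carries no test. Chgb was closest to Tph1 (Pearson r = 0.997), and Tph1 to Nr3c1, the glucocorticoid receptor gene (0.998). Insl5 was closest to St3gal6 and Sval1, with Hoxb13 next (each 0.995). Nts was closest to Osr2 (1.000), a transcription factor gene, and Sst to Rcn2 (0.992).

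Of 7 further gut hormone genes, 4 were tested, with a median genotype log2 fold change of -0.33. An unadjusted p under 0.05 was found for 1 of the 4, beside 11.1% of all genes. It was Tac1, the substance P precursor gene, which enteric neurons also express (log2 fold change 0.57, SE 0.193, adjusted p = 0.366, edgeR). Sct, the secretin gene, behaved like Nts and Tph1, at 2.03, 31.3 and 1.68 CPM in Nsd2fl/fl and 2.07, 19.5 and 11.6 CPM in Nsd2ΔIE, with no overlap across Hoxb13. Sct and Tac1 had the highest mean levels of the list, at 19.6 and 14.5 FPKM. Ghrelin (Ghrl) stayed at 0.101 to 1.04 CPM.

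Of 16 other enteroendocrine transcription factors, 15 were tested, with a median log2 fold change of 0.23. An unadjusted p under 0.05 was found for 3, beside 11.1% of all genes: Etv1 (0.88, SE 0.265) and Prox1 (0.80, SE 0.238) were higher in Nsd2ΔIE and Rfx6, a factor of hormone cell identity, was lower (-0.60, SE 0.248), with adjusted p-values of 0.323 to 0.443 (edgeR). Rfx6 was at 1.95, 1.92 and 1.80 CPM in Nsd2fl/fl and at 1.19, 1.24 and 1.33 CPM in Nsd2ΔIE. Etv1 and Prox1 are also expressed outside the epithelium. Foxa1 and Foxa2, shared with other epithelial cells, had the highest levels, at 15.6 and 9.84 FPKM. Foxa2 and Isl1 were higher and Foxa1 and Pax4 lower in the high-Hoxb13 libraries without overlap, which makes 4 of 15, near the 22.4% of all genes.

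The granule and prohormone processing genes were the related list with the most genes past an unadjusted p of 0.05. All 16 were tested, 15 were fitted higher in Nsd2ΔIE, 9 had an unadjusted p under 0.05, all higher (8.15% of all genes), and the median log2 fold change was 0.63. Cpe, the carboxypeptidase that trims prohormones, was at 107, 63.8 and 94.9 CPM in Nsd2fl/fl and at 148, 201 and 223 CPM in Nsd2ΔIE (log2 fold change 1.10, SE 0.237, adjusted p = 0.302, edgeR). The log2 fold change was 0.84 (SE 0.173) for Ptprn, a membrane protein of the granule, and 0.71 (SE 0.172) for Pcsk1n, an inhibitor of prohormone convertase, both with an adjusted p of 0.302. These genes are shared with neurons, and the enteric neuron markers above were higher in the same libraries. The part of neurons in this list was not tested. Pam, the enzyme that amidates peptides, was at 31.3 FPKM, second to Cpe at 65.7 FPKM, with a log2 fold change of 0.04 (SE 0.294). Pcsk1, the convertase of L cells, was lower in the 3 high-Hoxb13 libraries, at 11.1 to 15.9 CPM, than in the low ones, at 29.7 to 44.6 CPM. Pam went the other way, at 202 to 244 CPM in the high libraries and 117 to 176 CPM in the low ones. Of the 16 genes, 3 were lower and 1 higher with high Hoxb13 without overlap, beside 22.4% of all genes in either direction.

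For serotonin and amine handling, 6 of 7 genes were tested, with a median log2 fold change of -0.02. An unadjusted p under 0.05 was found for 1 of the 6, beside 11.1% of all genes. It was Slc18a2, the vesicular monoamine transporter shared with neurons and mast cells (1.42, SE 0.328, adjusted p = 0.302, edgeR). Maoa and Ddc had the highest levels, at 205 and 21.4 FPKM. Of the 6 genes, 1 was lower and 3 were higher with high Hoxb13 without overlap, beside 22.4% of all genes in either direction. The lower one was Slc18a1, the transporter of enterochromaffin cells, which went like Tph1. Ddc, which acts after Tph1 in serotonin synthesis, was higher in the high libraries, at 66.2 to 83.1 CPM against 34.2 to 35.9 CPM. Slc6a4 was higher there too, at 22.6 to 35.1 CPM against 3.39 to 9.88 CPM, as was Maob.

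Of 10 sensors of nutrients and microbial products, 9 were tested, with a median log2 fold change of -0.25. Ffar3, a receptor for short-chain fatty acids, was higher in Nsd2ΔIE (0.80, SE 0.289, adjusted p = 0.393) and Lpar5 lower (-0.41, SE 0.134, adjusted p = 0.354) at an unadjusted p under 0.05 (edgeR). Among all genes, 8.15% were higher and 2.96% lower at that level. Ffar4 and Ffar2 had the highest levels, at 15.1 and 8.23 FPKM, and both were lower in the high-Hoxb13 libraries without overlap. Of the 9 genes, 3 were lower there and 1, Gpr119, was higher without overlap, beside 22.4% of all genes in either direction.

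Among 22 genes for receptors and degradation of the products, 17 were tested, with a median log2 fold change of 0.49, and 5 had an unadjusted p under 0.05, all higher in Nsd2ΔIE (8.15% of all genes). Those of smallest p were Cckar, a cholecystokinin receptor (1.72, SE 0.407, adjusted p = 0.302), Glp2r, a receptor for a Gcg product (0.59, SE 0.176, adjusted p = 0.323), and Sstr1, a somatostatin receptor (0.96, SE 0.325, adjusted p = 0.367, edgeR). Receptors of this list are known from enteric neurons and muscle as well as epithelium. Sort1, which binds neurotensin, and Sstr1 had the highest levels, at 62.9 and 10.5 FPKM. Rxfp4, the receptor for the Insl5 product, did not pass the filter on low counts.

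**Figure D4:**
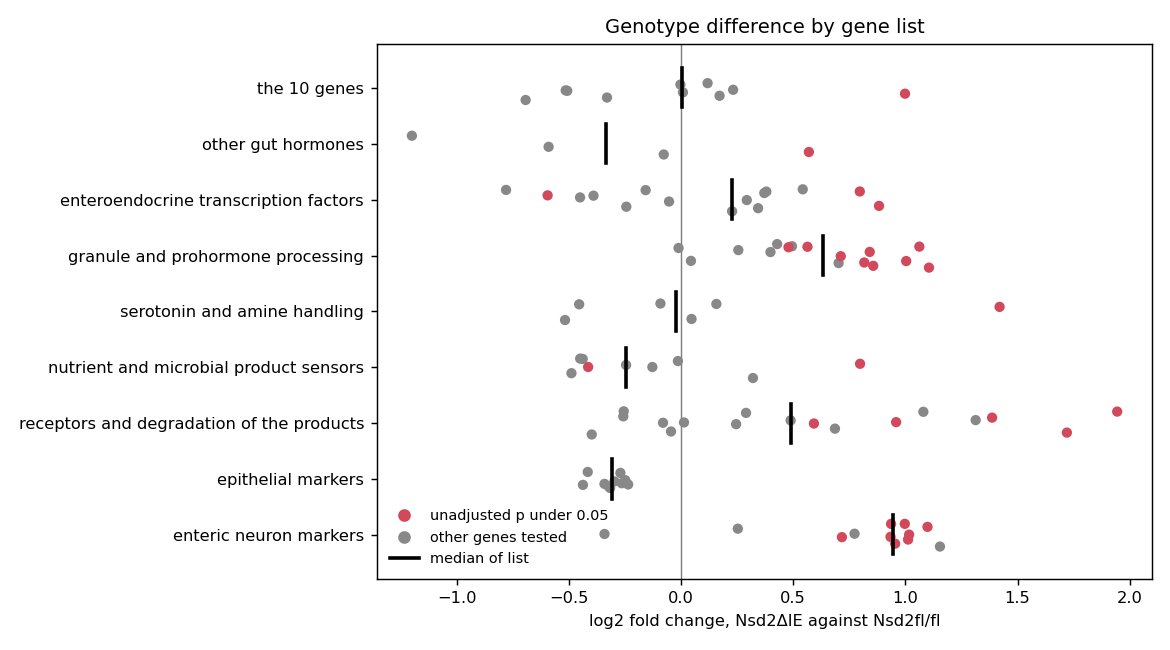
Log2 fold change of Nsd2ΔIE against Nsd2fl/fl (edgeR, 3 libraries per group) for each gene tested in the 10-gene set, 6 related lists and 2 marker lists (points, scattered vertically for clarity; red, unadjusted p under 0.05; black bars, list medians). The 10 genes centre at 0.003, granule and processing genes at 0.63 and enteric neuron markers at 0.95.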

How the data were processed

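Total RNA of colon in 3 libraries of Nsd2fl/fl and 3 of Nsd2ΔIE mice (labelled NSD2fl/fl and NSD2∆IE) was sequenced. The authors deposited, for each library, whole-number read counts per gene and FPKM values per gene. The submitters' processing notes name fastp, HISAT2, HTSeq, R 3.2.0 and mm10. The annotation and the use of strand are not given in the sources used here. The gene lengths implied by deposited counts and FPKM were whole to within 0.0638 bases over 17863 genes, so both come from the same reads. No row was for unassigned reads.

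Counts were fitted in R 4.3.3 with edgeR 4.0.16: filterByExpr, TMM factors and the two-sided quasi-likelihood test of genotype without covariates, with Benjamini-Hochberg adjustment over 16347 genes. The SE was taken as the size of the log2 change over the root of its F statistic. Log2 CPM used a prior count of 2. Groups and replicate numbers came from the labels. The labels do not say that replicates are separate animals, so p-values measure the spread between these libraries (biological coefficient of variation 0.311). Library pairs differed beyond sampling noise (chi-square per degree of freedom at least 35.46), so none was merged. Floors cover counting error only.

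The 10 genes, the lists and the alternatives were chosen with earlier results of these data known. Beside the 10 genes, text names the 2 genes of highest FPKM per list and up to 3 per direction with the smallest unadjusted p under 0.05. Sct as compared with Nts, Ghrl, Pcsk1, Slc18a1, Isl1, Pax4, Gpr119, Rxfp4 and the further Hox genes were named after their values were seen. So were Slc6a4 and Maob. For likeness, up to 3 genes of highest Pearson r were eligible. Positions are from GENCODE M21 (GRCm38), and promoter windows from RefSeq (all 10 matched, chromosome 18 left out of the background). Where several windows were listed, the one nearest the GENCODE start was taken. Alternatives were RLE and upper-quartile factors, library totals, no filter, a replicate block, the Hoxb13 split as covariate, DESeq2 1.42.0, voom with sample quality weights and log2(FPKM + 1) or log2(FPKM + 0.1) in limma 3.58.1, and leaving out each library. The fit was tested on simulated counts.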

Additional observations from a re-analysis of the deposited data

How the results depend on the processing

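Under 16 alternatives no member reached an adjusted p under 0.05. Of 160 log2 fold changes of the 10 genes, 131 kept their sign and 29 changed it. Sst kept its sign in all 16, with an unadjusted p under 0.05 in 13 and an adjusted p from 0.0774 (DESeq2) to 0.990 (without Nsd2ΔIE 3). Gcg, Pyy and Neurod1 also kept theirs. Tph1 turned to 0.075 with upper-quartile factors, 0.14 with library totals, 0.29 with the replicate block, 0.48 with voom, 0.32 with log2(FPKM + 1) and 0.41 with log2(FPKM + 0.1). Nts turned to 1.70, 3.89, 1.07 and 1.89 under the replicate block, voom and both FPKM scales in that order. Chga turned to -0.022 without the filter. With the Hoxb13 split as a covariate Chga was at -0.087, Chgb at -0.063, Cck at -0.021 and Insl5 at 0.68. Leaving out 1 library at a time gave -0.34 to 0.91 for Chga, -0.23 to 1.01 for Chgb, -0.10 to 1.00 for Cck, -1.64 to 7.73 for Nts and -0.45 to 1.10 for Tph1. The cause was not tested. The number of members with an unadjusted p under 0.05 was 2 with the Hoxb13 covariate, 2 with voom (Pyy and Sst), 2 on each FPKM scale (Gcg and Sst), and 0 (without Nsd2ΔIE 2 or 3) to 5 (without Nsd2fl/fl 2) when 1 library was left out. The shares of all genes were 13.0% with the covariate, 14.3% with voom, and 13.1% and 12.8% with log2(FPKM + 1) and log2(FPKM + 0.1). They were 6.0% and 4.9% without Nsd2ΔIE 2 and 3, and 13.2% without Nsd2fl/fl 2. Of all genes, 466 had an adjusted p under 0.05 by DESeq2, and 3 to 5 with 1 library left out (3 without Nsd2fl/fl 1 or 3). With library totals, and in FPKM, 2 members did not overlap between genotypes, Gcg joining Sst. Correlations of same-numbered deviations were 0.50, 0.64 and -0.17. They cannot decide whether replicate numbers pair the libraries, since differently numbered pairs were not set beside them. The replicate block left 1 member with an unadjusted p under 0.05, beside 13.7% of all genes. List medians moved by more than their spread in 12 of 176 cases. Without Nsd2fl/fl 2 the median of the other gut hormones was 1.53 and that of the sensors 0.14, and the serotonin list was at 0.29 with the Hoxb13 covariate. Counts were lowest for Nts, at 3 or 4 in 3 libraries, for Cck, at 31 to 108, and for Neurod1, at 64 to 139. In the simulated counts most 2-fold changes were missed at an adjusted p under 0.05 (edgeR). How far depth or the spread between libraries limits the results of the 10 genes was not tested beyond that.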
